A study of Homo sapiens with 12 samples.

Results

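The experiment set TC71 cells, an established human Ewing sarcoma line, carrying a mimic of the microRNA miR-130b against TC71 cells carrying a scrambled control, both taken at 48 h. It comprised 8 of the 12 arrays of the series, 4 labelled mimic and 4 labelled scramble, numbered 1 to 4 in each group. The remaining 4 arrays, labelled anti-miR, were left out of the fit. The labels do not state whether the 4 arrays of a group came from separate cultures, so p-values measure the spread between these samples, which may be technical. The labels also do not state the dose, the means of delivery, or which arm of the microRNA the mimic supplied, and all results come from 1 cell line. Both groups carried an introduced RNA, and no untreated cells were used here. Of 47322 probes on the array, 19532 had a detection p-value under 0.05 on at least 4 of the 8 arrays, and 15072 of those named a gene. Each gene was read from its brightest such probe, which gave 11382 genes, of which 10071 were detected on all 8 arrays.

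A microRNA is a short RNA that, loaded into an Argonaute protein, pairs with messenger RNAs mainly through its seed, the bases near its 5′ end. Paired messengers are degraded or translated less, so direct targets of a mimic can fall while many other transcripts change downstream. miR-130b belongs to the miR-130 family, whose members share 1 seed and are therefore thought to share many targets. Its transcript arises from the same locus as that of miR-301b. In Ewing sarcoma the tumour cells carry a fusion of EWSR1 with an ETS factor gene, most often FLI1, which drives much of their transcription.

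The sequences that define the reagent and its family are shown because the seed is the part by which the mimic would act. The RefSeq table (GRCh38.p14) holds both arms of miR-130b, on chromosome 22 at chr22:21653354-21653375 and chr22:21653316-21653336 of the plus strand. The seed, bases 2 to 8, is in capitals:
miR-130b-3p: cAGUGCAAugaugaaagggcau
miR-130b-5p: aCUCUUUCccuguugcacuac
miR-301a-3p: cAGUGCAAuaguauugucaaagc
miR-301b-3p: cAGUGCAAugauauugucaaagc
miR-454-3p: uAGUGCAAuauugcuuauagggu
The seed AGUGCAA of miR-130b-3p, which pairs with UUGCACU in a messenger, was carried by 6 of the 2545 mature sequences in the table. Those not printed here were miR-3666 and miR-4295. No sequence of miR-130a was among the 6, so the count may not cover the whole family. The 5p arm of miR-130b has another seed, CUCUUUC. miR-301b lies near miR-130b at chr22:21653025-21653047, while miR-301a (chr17:59151149-59151171) and miR-454 (chr17:59137787-59137809) lie on the minus strand of chromosome 17. The array probe for MIR130B was detected on 0 of 8 arrays, as were those for MIR301A and MIR301B, and the probe for MIR454 was detected on 1. These probes read precursor RNA and do not check the mimic. The MIR130A probe was detected on all 8 arrays and changed by -0.31 ± 0.12 on the log2 scale (limma's standard error, 4 arrays per group), which missed the threshold (limma adjusted p = 0.106).

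The mimic changed 1578 of 11382 genes (13.9%) at a Benjamini-Hochberg adjusted p under 0.05 from limma. Of these, 740 were higher (6.5% of genes tested) and 838 were lower (7.36%), so that 46.9% of the changed genes were rises. When arrays were scaled to a common median in place of a common distribution, 402 were higher and 706 lower, a share of rises of 36.3%, and the median of all genes stood at -0.05 in place of -0.003. The changes were small: the median change was 0.46 among genes that rose (interquartile range 0.39 to 0.58) and -0.48 among genes that fell (-0.59 to -0.40). At least 2-fold changes were limited to 10 rises and 20 falls, and 180 genes rose and 218 fell at least 1.5-fold. Over all genes the interquartile range of changes ran from -0.16 to 0.16. The median SD within the group was 0.142 for mimic arrays and 0.141 for scramble arrays.

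A count that makes no use of the model gave a similar picture. In 2466 genes (21.7%) the 4 mimic values did not overlap the 4 scramble values, with the mimic above in 1228 (10.8%) and below in 1238 (10.9%). Both conditions, the adjusted p and the absence of overlap, held for 1444 genes (12.7%). Over single probes 2621 of 19532 were called (13.4%), and of the 4460 kept probes that name no gene, 519 were (11.6%). The share of genes called varied with the level: with genes ranked by level and cut into 4 equal bins, it was 8.71%, 15.5%, 16.9% and 14.3% from the dimmest to the brightest bin. By chromosome it ran from 7.98% of 163 genes on chromosome 18 to 17.2% of 634 genes on chromosome 3. Leaving out 1 array at a time changed the total by over 1.5 times in 6 of 8 cases: 957 genes were called without mimic 1, 844 without mimic 3, 765 without mimic 4, 863 without scramble 1, 911 without scramble 2 and 855 without scramble 3. Without mimic 2 and without scramble 4 the totals were 1594 and 1591. Of the 1578 genes, 601 (38.1%) were called in all 8 of these fits, 272 higher and 329 lower.

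**Figure D1:**
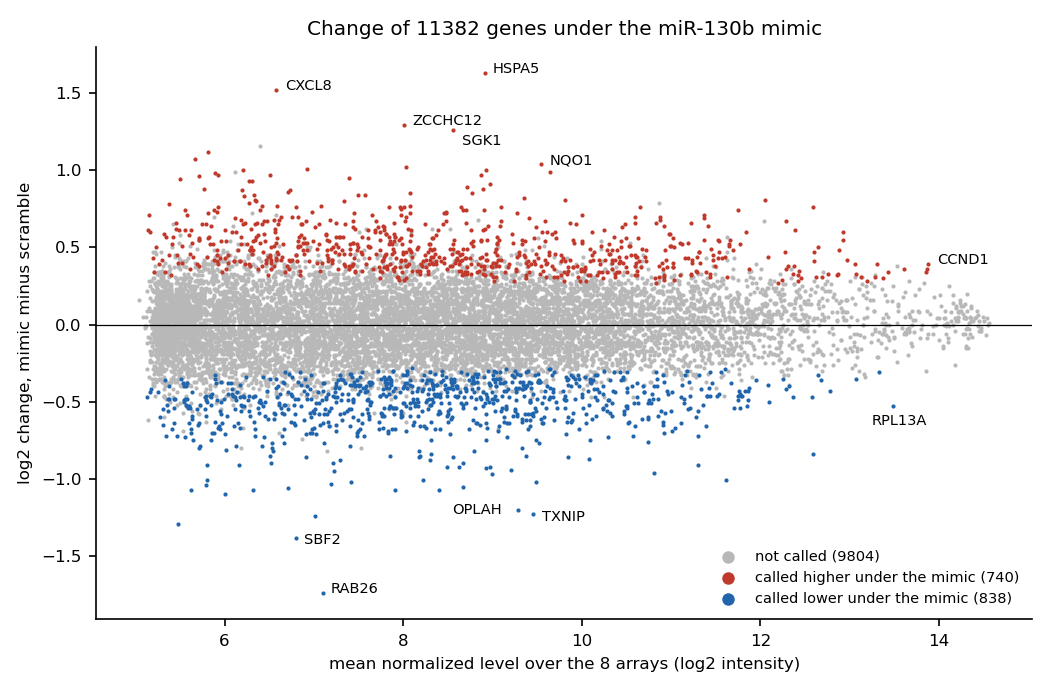
Log2 change, mimic minus scramble, of each of 11382 genes (vertical) against its mean normalized log2 intensity over the 8 arrays (horizontal); red and blue points are the 740 genes called higher and the 838 called lower under the mimic, grey points were not called. Rises and falls are about equally many, occur at all levels, and in most cases are below 1 in size.

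The arrays themselves were similar between groups. Median raw intensity was 84.5 to 87.6 on mimic arrays and 85.5 to 88.8 on scramble arrays (exact two-sided permutation test over arrays, p = 0.2), and 19081 to 20326 probes were detected on mimic arrays against 19008 to 19937 on scramble arrays (exact p = 0.543; the smallest p that 4 against 4 arrays can give is 0.0286). Correlations over all kept probes were 0.9906 to 0.9939 between mimic arrays, 0.9896 to 0.9941 between scramble arrays and 0.9799 to 0.9923 across groups. Mimic array 2 lay nearest to the scramble mean in 910 of the 1578 called genes, and the median distance of called genes from the other group's mean was 0.36 there against 0.48 to 0.52 on the other mimic arrays. Scramble array 4 was the nearest of its group in 702 called genes. Of 18 markers of Ewing cells on the array 17 were tested, with 2 higher and 1 lower, and their summed linear level was 61619 to 65357 on mimic arrays and 61708 to 65663 on scramble arrays. NPY was detected on 0 arrays. The endothelial genes PECAM1, VWF, CDH5, KDR and TEK and the blood cell genes PTPRC, CD3E and HBB were also detected on 0 arrays. Of 6 markers on the array for each kind, 1 endothelial gene (-0.42) and 1 blood cell gene (0.07) were tested, and neither was called. The linear level of the tested endothelial gene was 110 to 197 on mimic arrays and 172 to 233 on scramble arrays.

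The 12 largest rises and 12 largest falls were taken among called genes whose groups did not overlap, so the separation of their groups comes from that choice, and larger changes with overlap are given after them. The largest rise was that of HSPA5, which encodes BiP, the chaperone of the endoplasmic reticulum. Its normalized log2 intensity was 10.07, 8.99, 9.53 and 10.31 on mimic arrays, against 7.77, 8.38, 8.11 and 8.13 on scramble arrays. Every mimic array stood above every scramble array, although the mimic arrays differed among themselves more than the scramble arrays did. The log2 change was 1.63 ± 0.24, a 3.09-fold rise (limma adjusted p = 0.00482). CXCL8, the neutrophil chemokine interleukin-8, had 7.56, 6.77, 7.15 and 7.87 on mimic arrays, against 5.86, 6.04, 5.79 and 5.59 on scramble arrays. It rose 2.86-fold (log2 change 1.52 ± 0.20, limma adjusted p = 0.0046), again without overlap. Mimic array 2 gave the lowest mimic value of both genes. ZCCHC12, a coactivator in BMP signalling, rose by 1.29 ± 0.14, with 8.29 to 8.94 on mimic arrays against 7.24 to 7.46 on scramble arrays. SGK1, a kinase induced by serum and steroids, rose by 1.26 ± 0.13, and its mimic arrays spanned 8.83 to 9.41 against 7.77 to 8.06 on scramble arrays.

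The other 8 of these rises included the fatty acid receptor gene CD36 (1.07 ± 0.18, detected on 2 of 4 scramble arrays), NQO1, a quinone reductase (1.04 ± 0.13), ARID3B, a DNA-binding protein (1.02 ± 0.21), and TIMP3, an inhibitor of matrix metalloproteases (1.01 ± 0.15). SRPRA, a subunit of the receptor that docks ribosomes at the endoplasmic reticulum, rose by 1.00 ± 0.13. The small nucleolar RNA gene SNORA63 rose by 1.00 ± 0.17, the cell cycle phosphatase gene CDC25A by 0.99 ± 0.18 and SLC38A12 by 0.98 ± 0.15. The limma adjusted p of these 8 lay between 0.00343 and 0.0134.

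The largest fall was that of RAB26, a GTPase of secretory and synaptic vesicles. Its values were 6.29, 6.63, 5.90 and 6.10 on mimic arrays, against 8.35, 8.0, 7.92 and 7.60 on scramble arrays. The groups stood well apart, and the change was -1.74 ± 0.17 (limma adjusted p = 0.00263), a 3.34-fold fall. SBF2, a myotubularin-like protein that activates a Rab GTPase, had 6.25, 6.56, 5.90 and 5.73 on mimic arrays, against 7.57, 7.59, 7.60 and 7.20 on scramble arrays. It fell 2.60-fold (-1.38 ± 0.17, limma adjusted p = 0.00343) with no overlap. DEPTOR, an inhibitory partner of mTOR kinase, changed by -1.24 ± 0.14, and OPLAH, which returns oxoproline to glutamate in the glutathione cycle, by -1.20 ± 0.15. Their adjusted p-values in limma were 0.00322 and 0.00381.

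Of the remaining 8 of these falls, 3 were not detected on all mimic arrays. ABTB1, an ankyrin and BTB domain gene, was detected on 0 of 4 mimic arrays and all 4 scramble arrays, and was at least 1.85-fold lower under the mimic (limma adjusted p = 0.00615), counted from the dimmest detected signal of each array. It passed the filter only through scramble arrays and so had to differ, and its place among these falls rests on mimic values not above background, since the bound is 0.88 on the log2 scale. CCNG2, an atypical cyclin associated with cell cycle exit, changed by -1.10 ± 0.20, with 5.06, 6.17, 5.18 and 5.39 on mimic arrays and 6.64, 6.42, 6.66 and 6.49 on scramble arrays. Mimic array 2 was closest to scramble there, and 2 of the 4 mimic arrays detected the probe. LAMB2P1, a pseudogene of the laminin gene LAMB2, was detected on 1 mimic array and changed by -1.07 ± 0.18. LAMB2 itself changed by -0.72 ± 0.10, and whether the 2 probes tell these near-identical copies apart is uncertain. The others were CLYBL, a mitochondrial lyase (-1.07 ± 0.13), KLHL24, a cullin adaptor (-1.07 ± 0.18), BST2, the antiviral tetherin (-1.07 ± 0.21), RNF41, a ubiquitin ligase (-1.06 ± 0.18), and the Mediator kinase CDK19 (-1.05 ± 0.18). In bulk samples such as these, fewer cells of a kind and less RNA per cell cannot be told apart.

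**Figure D2:**
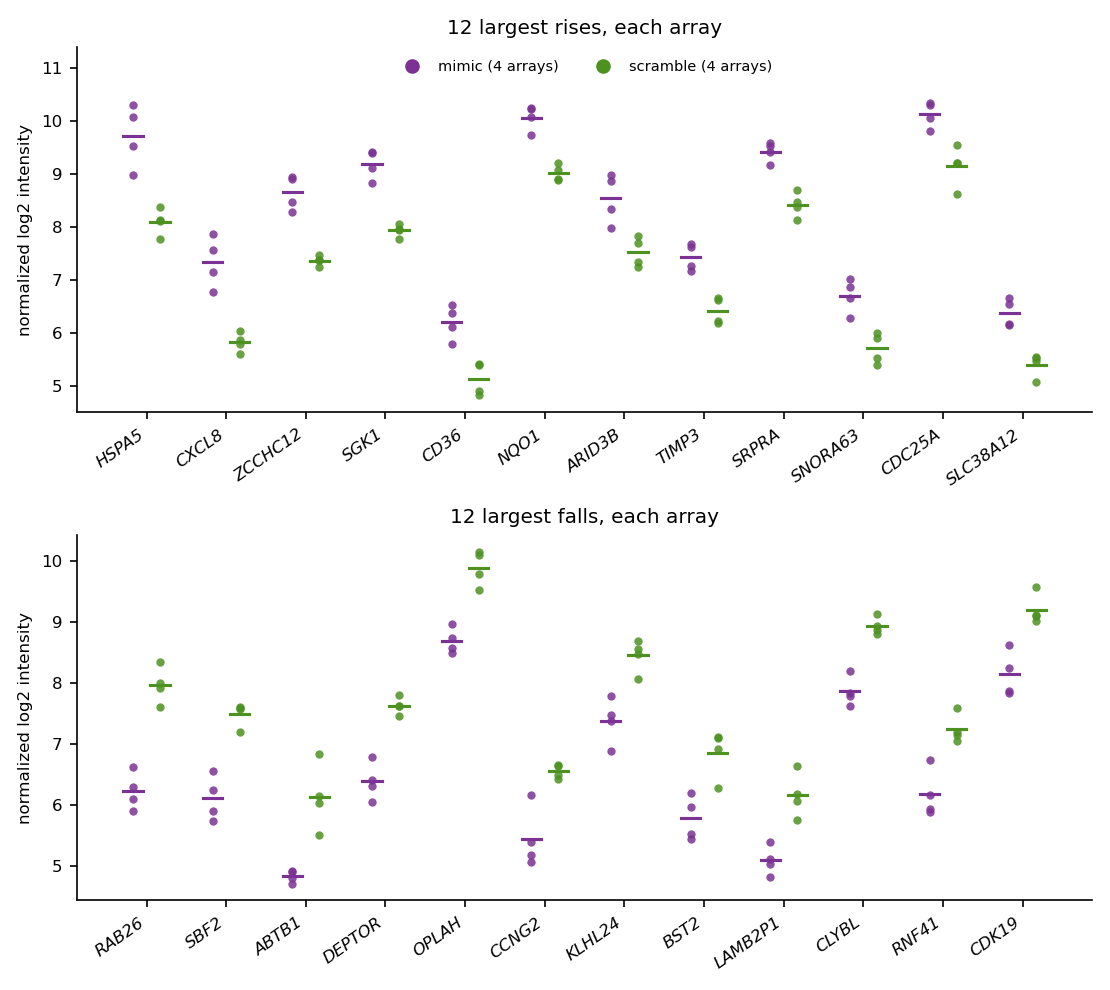
Normalized log2 intensity of the 12 largest rises (upper panel) and the 12 largest falls (lower panel) on every array, with mimic arrays left and scramble arrays right for each gene; short lines are group means of 4 arrays. Genes were chosen among those without overlap between groups. Within the mimic group HSPA5 spans 8.99 to 10.31.

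Other largest values came with wide spread. TXNIP, the thioredoxin inhibitor that reports glucose supply, changed by -1.23 ± 0.31 (limma adjusted p = 0.0244) with 8.25, 10, 8.82 and 8.30 on mimic arrays and 9.92, 10.17, 10.02 and 10.17 on scramble arrays. Mimic array 2 lay within the scramble range. NMRAL2P changed by 1.12 ± 0.28 with mimic array 2 (5.37) again inside the range of scramble arrays (4.79 to 5.56). ABHD14B and NUP133, a nuclear pore subunit, changed by -0.79 ± 0.23 and -0.75 ± 0.21. These 4 and HSPA5 were the called genes with the largest spread among mimic arrays. When 1 array at a time was left out, TXNIP lost its call in 6 of 8 fits, NMRAL2P in 5, ABHD14B in 6 and NUP133 in 7, with limma adjusted p of up to 0.0643, 0.069, 0.102 and 0.0929, in that order. The highest values came without mimic 4, and for NUP133 without mimic 1. GDF15, a stress-induced cytokine, was the only gene to change by over 1 and miss the threshold (1.16 ± 0.35, limma adjusted p = 0.0511). It had 6.44, 6.34, 7.74 and 7.38 on mimic arrays and 6.38, 6.15, 4.88 and 5.87 on scramble arrays, with 1 scramble array inside the mimic range.

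Some genes passed the filter through 1 group alone, 14 detected on all 4 mimic and 0 scramble arrays and 7 the reverse, of which 11 and 4 were called. Such genes had to differ, so they are given as bounds. MYL10, a myosin light chain, was at least 1.64-fold higher under the mimic, GSDMA, a gasdermin, at least 1.58-fold, and NRG4, a ligand of ERBB4, at least 1.44-fold. MYBL2 and SNORD96B were at least 1.15-fold and 1.14-fold higher.

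Genes with more than 1 probe gave a second reading. Among 431 called genes with several kept probes, the second brightest probe had the same sign in 87.9%, compared with 66.7% of the 2528 such genes that were not called. That second probe was itself called in the same direction in 182 of the 431. A further 297 genes were called only by a dimmer probe and count here as not called. All kept probes were called higher in 87 genes and called lower in 77. SGK1 was read by 3 probes whose changes differed by 0.03 on the log2 scale. The sodium pump subunit gene ATP1B1 gave 0.84 and 0.93, and CDC25A and CXCL8 were called by both of their probes. Among falls, DEPTOR, PSAP, a precursor of lysosomal saposins (-1.01 and -1.05), the reticulon gene RTN4 (-0.96 and -1.12), the purine salvage gene HPRT1 and PDCD4, an inhibitor of translation, were called by every probe. PPM1A, a phosphatase, was the only gene whose probes were called in opposite directions, -0.52 by its brightest probe and 0.74 by its second, and the first call was lost in 4 of 8 fits that left out 1 array (limma adjusted p up to 0.0617, without mimic 4). CDC42, the small GTPase named in the series title, had 3 kept probes with 0 called, its brightest changing by -0.21 ± 0.15 (limma adjusted p = 0.369) and its second by 0.43.

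**Figure D3:**
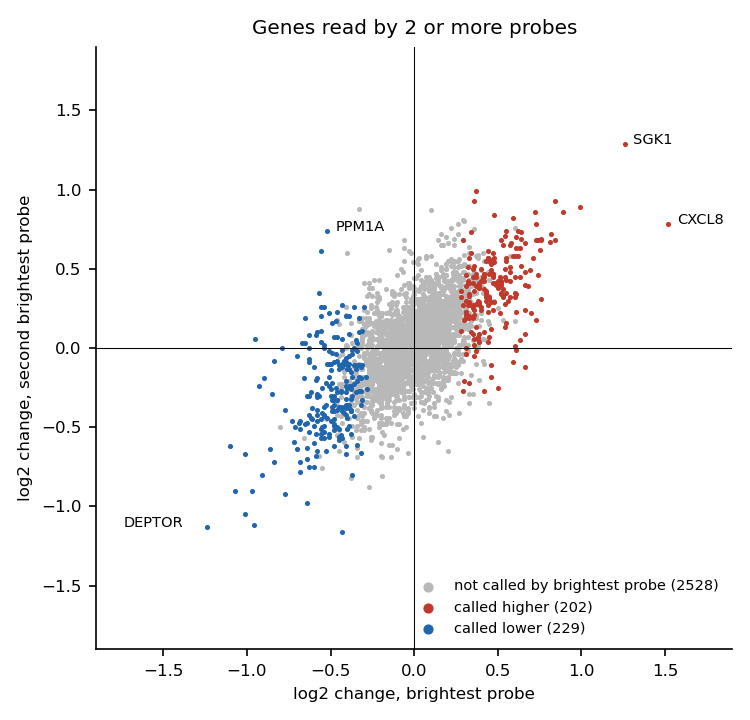
Log2 change of the second brightest probe (vertical) against that of the brightest probe (horizontal) for 2959 genes with 2 or more kept probes; colour gives the call by the brightest probe. Most called genes lie in the quadrants of equal sign, SGK1, CXCL8 and DEPTOR among them, while PPM1A lies in the upper left.

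ARHGAP1, the GTPase activating protein that switches CDC42 off and is named in the series title, had 7.74, 8.52, 8.53 and 8.06 on mimic arrays, against 8.80, 8.77, 8.80 and 8.82 on scramble arrays. Every mimic array was lower, by widely differing amounts, while the scramble arrays were nearly equal. The change was -0.58 ± 0.16, a 1.5-fold fall (limma adjusted p = 0.0345). The adjusted p was 0.0619 without mimic 1, 0.0879 without mimic 4, 0.0745 without scramble 1, 0.0692 without scramble 2, 0.0714 without scramble 3 and 0.0572 without scramble 4. Among 31 tested genes reported as targets of the miR-130 family, 10 fell and 1 rose, against 7.36% lower and 6.5% higher over all genes, and their median was -0.19. This list was chosen with earlier results of these data known, so its count is a description only. The largest falls were those of ROBO1, an axon guidance receptor (-0.90 ± 0.12), EPS15, an endocytic adaptor (-0.85 ± 0.12), and IRF1, an interferon response factor (-0.80 ± 0.17). ROBO1 had 6.59 to 6.98 on mimic arrays against 7.47 to 7.94 on scramble arrays, and EPS15 had 7.23 to 7.62 against 8.11 to 8.56. JUN, the best-known AP-1 subunit, rose by 0.88 ± 0.14, with 9.17 to 9.44 on mimic arrays against 8.25 to 8.89 on scramble arrays.

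Calls were spread over gene families but not evenly. Of 114 families with at least 8 tested genes, defined by symbol, the median family had 15.6% of its genes called and 85 had a median change within 0.1 of 0. In 8 families 0 genes were called, in 23 all calls were rises and in 20 all calls were falls. Across families and curated lists, 19 sets had at least 3 times the background share of calls in 1 direction (19.5% higher or 22.1% lower), 15 by rises and 4 by falls. Lists were chosen and family patterns narrowed with values of these data known, so passing this mark is not independent support. The counts below describe these 19 sets, and some share genes: HSPA5 is both a heat shock protein and a gene of the endoplasmic reticulum. Scaling arrays to a common median kept the prevailing direction of the calls in these 19 sets but lowered some counts of rises by over 1.5 times, to 9 for the proteasome, 2 for heat shock proteins, 3 for E2F factors, 3 for cyclins, 3 for replication factors, 6 for SR and hnRNP proteins, 5 for ribosome biogenesis and 2 for iron and haem.

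**Figure D4:**
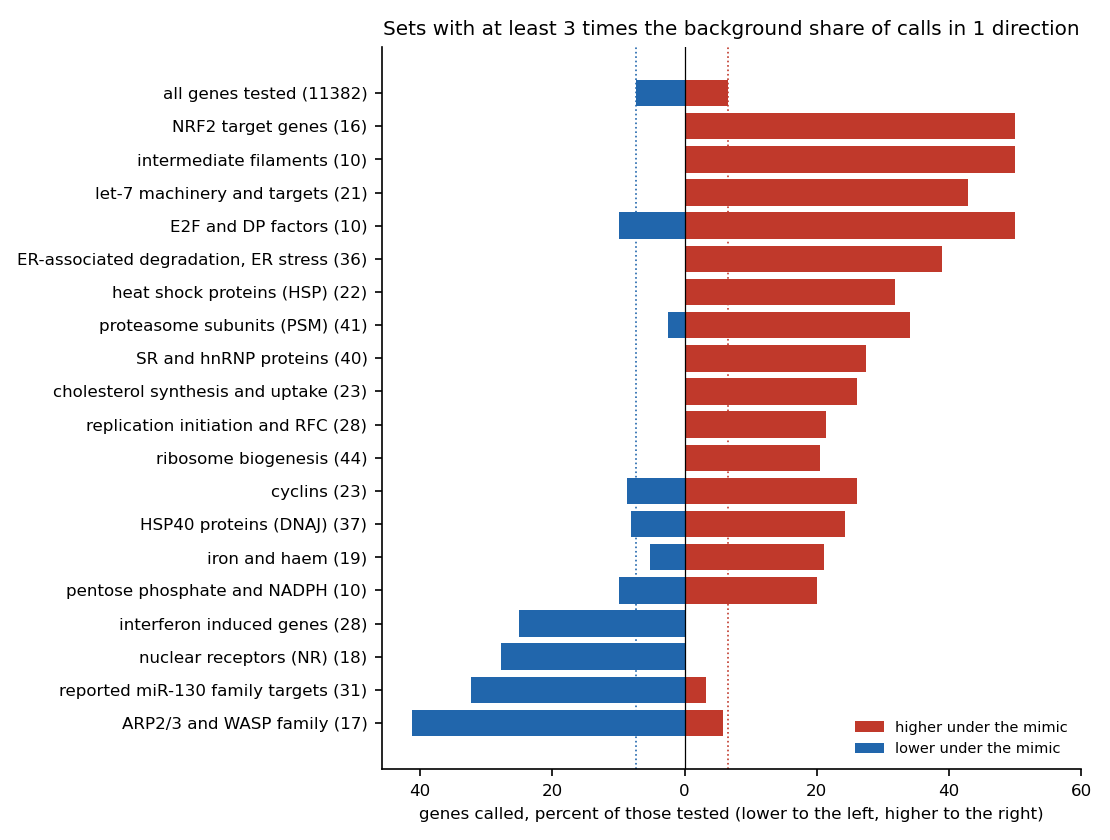
Percent of tested genes called higher (red, to the right) and lower (blue, to the left) under the mimic in each of the 19 sets, with the number tested in brackets; the top bar and dotted lines give all 11382 genes, 6.5% higher and 7.36% lower. NRF2 target genes, intermediate filaments and E2F factors have the highest share of rises, and the ARP2/3 and WASP family the highest share of falls.

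Rises prevailed in some sets for protein folding and in the list for degradation from the endoplasmic reticulum. The shares over all genes were 6.5% higher and 7.36% lower. Other folding families had smaller shares of rises. The CCT chaperonin and prefoldin had 2 higher and 0 lower of 14 (14.3% higher), with 0 higher when arrays were scaled to a common median. Disulfide and peptidyl prolyl isomerases had 5 higher and 2 lower of 36 (13.9% and 5.56%). Rises did not prevail in families of ubiquitin ligases and their adaptors. RING finger proteins had 2 higher and 3 lower of 62 (3.23% and 4.84%). F-box proteins had 1 and 4 of 46 (2.17% and 8.7%), and Kelch and BTB adaptors 5 and 6 of 57 (8.77% and 10.5%). Of 36 genes for degradation from and stress sensing in the endoplasmic reticulum, 14 rose and 0 fell, with a median of 0.37. The largest after HSPA5 were the co-chaperone HYOU1 (0.84 ± 0.19) and NPLOC4 (0.74 ± 0.12). NPLOC4 and UFD1, which rose by 0.62, are partners of the segregase VCP in extracting misfolded proteins. Of 22 heat shock proteins 7 rose and 0 fell, led after HSPA5 by the cytosolic disaggregation factor HSPH1 (0.67 ± 0.10), which had 12.49 to 12.69 on mimic arrays and 11.83 to 12.07 on scramble arrays. Among 37 J-domain co-chaperones, which hand clients to HSP70, 9 rose and 3 fell, with a median of 0.15. DNAJA1 rose by 0.76 ± 0.13, DNAJB11, the partner of BiP, by 0.69 ± 0.11, and DNAJC5 by 0.67 ± 0.10. DNAJC18 and DNAJC4 each changed by -0.45. HYOU1 lost its call without mimic 4 (limma adjusted p = 0.0523), DNAJC18 in 5 of 8 fits that left out 1 array (up to 0.0641, without mimic 3) and DNAJC4 in 4 (up to 0.0639, without scramble 3). The count of rises in the endoplasmic reticulum list was 7 without mimic 4 and 18 at most, and that of the heat shock proteins was 2 without scramble 3 and 9 at most. The J-domain set had 4 rises and 0 falls without mimic 3.

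The proteasome, the protease that degrades ubiquitin-tagged proteins, had 14 of 41 tested genes higher and 1 lower, with a median of 0.28. Of the regulatory particle, which unfolds substrates, 10 of 17 subunits rose and 15 of 17 had every mimic array above every scramble array. Of the catalytic core 3 of 13 rose and 9 of 13 had the mimic above without overlap. Over all genes 6.5% rose and 10.8% had the mimic above without overlap. PSMC4, an ATPase subunit, had 10.21, 10.13, 10.42 and 10.28 on mimic arrays, against 9.60, 9.65, 9.83 and 9.86 on scramble arrays (0.53 ± 0.10, limma adjusted p = 0.00915). All mimic values lay above 10 and all scramble values below it. The activator subunit genes moved apart: PSME3, of the nuclear PA28 gamma activator, rose by 0.73 ± 0.11, whereas PSME1, of the interferon-inducible PA28 alpha, changed by -0.66 ± 0.09. PSME1 had 10.96 to 11.21 on mimic arrays against 11.67 to 11.76 on scramble arrays, although its second probe read -0.19 and was not called. The set's count of rises was 8 without mimic 4 and 13 at most among the fits that left out 1 array.

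Sets of antioxidant, NADPH, iron and cholesterol genes also had more rises than falls, although most members of all but the first were not called. The shares over all genes were 6.5% higher and 7.36% lower. The family of aldehyde dehydrogenases, aldo-keto reductases and quinone reductases had 3 higher and 2 lower of 23. Of 16 targets of the antioxidant factor NRF2, 8 rose and 0 fell, with a median of 0.29. NQO1 had 10.07, 9.73, 10.23 and 10.24 on mimic arrays, against 8.89, 9.21, 8.91 and 9.08 on scramble arrays. SRXN1, which repairs peroxiredoxins, rose by 0.91 ± 0.14, and the haem oxygenase HMOX1 by 0.77 ± 0.15. Among 10 genes of the pentose phosphate path and NADPH supply, IDH1 (0.64 ± 0.11) and PGD (0.55 ± 0.10) rose and NNT changed by -0.41. Of 19 iron and haem genes, 4 rose and 1 fell, with a median of 0.03 (-0.01 with arrays scaled to a common median). The transferrin receptor gene TFRC rose by 0.81 ± 0.16. Of 23 genes of cholesterol synthesis and uptake 6 rose and 0 fell, among them DHCR7, the last enzyme of one branch (0.81 ± 0.17), and ACAT2 (0.74 ± 0.13). NNT lost its call in 6 of 8 fits that left out 1 array (limma adjusted p up to 0.0756, without mimic 4), and the iron and haem list had 2 rises without mimic 1.

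Among cell cycle genes the calls differed by family, beside 6.5% higher and 7.36% lower over all genes. Cyclin-dependent kinases had 1 higher and 3 lower of 17, DNA polymerase subunits 1 higher and 0 lower of 16, and the anaphase-promoting complex 1 higher and 0 lower of 14. Of 10 tested E2F and DP factors, which time entry into S phase, 5 rose and 1 fell, with a median of 0.40. E2F6, a repressive member, had 10.01, 9.81, 9.95 and 10.10 on mimic arrays, against 9.33, 9.42, 9.34 and 9.42 on scramble arrays (0.59 ± 0.09, limma adjusted p = 0.00506). E2F5 and E2F2 rose by 0.48 each, E2F7 by 0.41, and the dimer partner TFDP1 by 0.45, called by its second probe also. Its paralogue TFDP2 changed by -0.43. Of 23 cyclins 6 rose and 2 fell, with a median of 0.13. The G1/S cyclin gene CCNE1 rose by 0.76 ± 0.14 and CCND1, among the brightest called genes, by 0.39 ± 0.09. Of 28 genes for loading the replicative helicase and clamp, 6 rose and 0 fell, with a median of 0.12. GINS2 rose by 0.51 ± 0.12 and GINS3 by 0.49. In this set 0 rises were called without mimic 3. The E2F set had 3 rises without mimic 4 and the cyclins 2 without scramble 3. When 1 array was left out, E2F5 (without mimic 4), GINS2 and GINS3 (both without mimic 3) lost their calls in 1 of 8 fits, E2F2 and CCND1 in 3, E2F7 in 4 and TFDP2 in 6. The highest limma adjusted p among these was 0.0934, for TFDP2 without scramble 3.

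Families of RNA-handling genes differed. Over all genes the shares were 6.5% higher and 7.36% lower. Exosome and decay factors, with 4 higher and 4 lower of 41 (9.76% each), lay near those shares. So did Argonaute and TNRC6 proteins, with 1 and 1 of 10. DEAD and DEAH box helicases had 6 and 3 of 44 (13.6% and 6.82%). Integrator and TATA-binding associated factors had 1 and 4 of 32 (3.12% and 12.5%). SR and hnRNP proteins bind pre-messenger RNA and guide splicing. Of 40 genes grouped by these symbols, which can include pseudogenes, 11 rose and 0 fell, with a median of 0.13. The largest rises were those of HNRNPAB (0.61 ± 0.11), SRSF3 (0.61 ± 0.15) and HNRNPM (0.55 ± 0.10). HNRNPAB had 12.55 to 12.94 on mimic arrays against 11.87 to 12.26 on scramble arrays, and its second probe read 0.70. Of 44 ribosome biogenesis factors 9 rose and 0 fell, with RRP1 at 0.56 ± 0.11 and a median of 0.17. SRSF3 lost its call in 4 of 8 fits that left out 1 array (limma adjusted p up to 0.0641, without scramble 2). The SR and hnRNP set had 5 rises without mimic 1, and the biogenesis set had 2 without mimic 3 and 10 at most. Ribosomal proteins themselves did not follow. Of 29 small subunit proteins 0 were called, 2 had an unadjusted p under 0.05, and the median was 0.00 (it was -0.06 with arrays scaled to a common median). Of 47 large subunit proteins 1 rose and 6 fell. RPL28 had 8.20, 8.19, 8.23 and 8.28 on mimic arrays, against 8.99, 8.80, 8.78 and 8.78 on scramble arrays (-0.61 ± 0.09, limma adjusted p = 0.00482). RPL14 changed by -0.63 ± 0.10 and RPL13A, among the brightest called genes, by -0.53 ± 0.10.

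The list of let-7 machinery and targets, genes restrained by another microRNA family, had 9 of 21 higher and 0 lower, beside 6.5% and 7.36% over all genes. Its median was 0.16. Besides ARID3B and CDC25A it held MYCN (0.79 ± 0.19), ARID3A (0.72 ± 0.13) and LIN28B, the protein that blocks let-7 maturation (0.67 ± 0.14). LIN28B had 10.23, 9.72, 9.66 and 10.09 on mimic arrays, against 9.08, 9.47, 9.36 and 9.12 on scramble arrays, so all mimic arrays stood above all scramble arrays. MYCN lost its call in 3 of 8 fits that left out 1 array (limma adjusted p up to 0.0552, without scramble 2). Of 10 intermediate filament genes 5 rose and 0 fell, with KRT8 at 0.87 ± 0.19, KRT25 at 0.81 ± 0.19 and the neurofilament gene NEFH at 0.55 ± 0.10. KRT8 is also an epithelial marker. Of 7 epithelial markers on the array, CDH1, KRT19, CLDN4 and ESRP1 were detected on 0 arrays and 2 were tested, with a summed linear level of 117 to 172 on mimic arrays against 97 to 110 on scramble arrays. The part of such cells in the result was not tested. Of 9 fibroblast markers 7 were tested, with COL1A1 (0.76 ± 0.18) and THY1 (0.63 ± 0.12) higher, FAP (-0.46 ± 0.13) lower and PDGFRA detected on 0 arrays. The summed level of those 7 was 2174 to 2793 on mimic arrays and 2273 to 2643 on scramble arrays. Without mimic 4 the intermediate filament set had 3 rises, and KRT25 and COL1A1 lost their calls (limma adjusted p = 0.053 and 0.051). FAP lost its call in 7 of 8 such fits (up to 0.0882, without scramble 3).

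Sets in which falls prevailed were fewer. In the ARP2/3 and WASP family, which nucleates branched actin filaments, 7 of 17 fell and 1 rose, beside 7.36% and 6.5% over all genes. The median of the family was -0.1. All 7 tested members of the WAVE complex, which activates ARP2/3 at the cell edge, had a negative change and 4 were called: NCKAP1 (-0.77 ± 0.16), CYFIP2 (-0.64 ± 0.13), BRK1 (-0.61 ± 0.15) and ABI1 (-0.48). NCKAP1 had 8.92, 9.50, 9.36 and 8.76 on mimic arrays, against 10, 10.03, 9.94 and 9.63 on scramble arrays, and its second probe read -0.92. The 9 tested ARP2/3 subunits themselves changed by 0.02 to 0.41, with ARPC5L called higher. BRK1 lost its call in 4 and ARPC5L in 7 of 8 fits that left out 1 array (limma adjusted p up to 0.057 and 0.112, both without mimic 4), and the set had 4 falls without mimic 4 and 6 at most.

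Of 28 interferon-induced genes 7 fell and 0 rose, beside 7.36% lower and 6.5% higher over all genes, with a median of -0.25. BST2 had 5.53, 5.97, 6.20 and 5.44 on mimic arrays, against 7.12, 7.10, 6.27 and 6.92 on scramble arrays, a narrow separation set by scramble array 3. IFITM1, which blocks viral entry, changed by -0.57 ± 0.11. Of 18 nuclear receptors, ligand-controlled transcription factors, 5 fell and 0 rose, with a median of -0.09. RORB (-0.68 ± 0.13) and the clock gene NR1D2 (-0.56 ± 0.12) were dim, detected on 2 and 1 of 4 mimic arrays. NR4A2 changed by -0.50 ± 0.15 with overlapping groups and lost its call in 6 of 8 fits that left out 1 array (limma adjusted p up to 0.122, without scramble 2). Falls among nuclear receptors numbered 2 without mimic 3, and those in the interferon set 3 without mimic 4 and 8 at most.

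**Figure D5:**
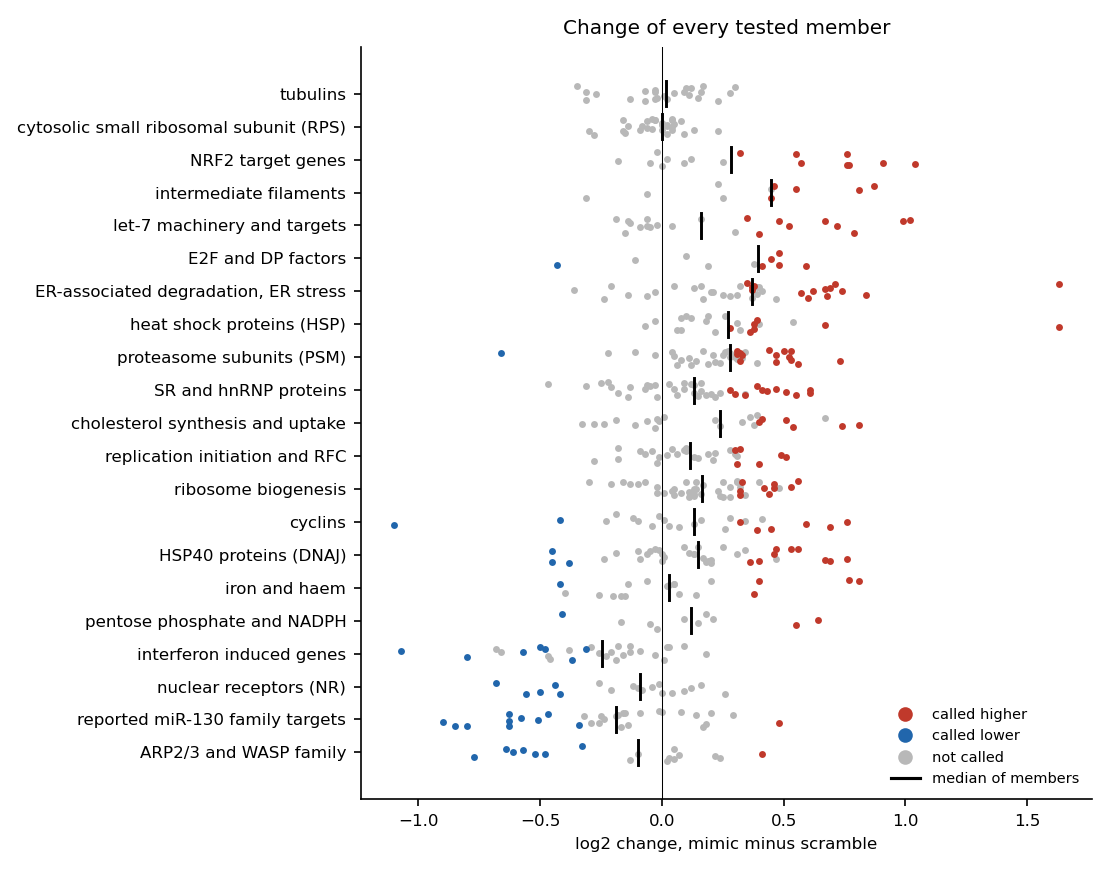
Log2 change, mimic minus scramble, of every tested member of the 19 sets and of 2 sets with 0 calls (tubulins and small ribosomal subunit proteins); red and blue points were called higher and lower, grey points were not called, and black lines are medians. HSPA5, at 1.63, appears in 2 sets, and members of most sets run to both sides of 0.

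Other families had calls in both directions. The groupings given here were chosen after the values had been seen. In the Mediator kinase module, a switchable part of the transcription machinery, the paralogous kinases moved apart: CDK8 rose by 0.54 ± 0.09 while CDK19 fell. CDK8 had 6.73, 6.47, 6.54 and 6.61 on mimic arrays, against 6.11, 6.02, 6.04 and 6.01 on scramble arrays. CDK19 had 7.84, 8.62, 8.25 and 7.87 on mimic arrays, against 9.58, 9.02, 9.09 and 9.11 on scramble arrays. Their shared cyclin gene CCNC rose by 0.69 ± 0.11. Both kinase probes separated the groups without overlap, and the MED12 and MED13L probes were not called. Of 29 phosphoinositide phosphatases and related proteins 7 fell and 0 rose. Of 21 genes for phosphoinositide kinases and their subunits, with the pseudogenes PI4KAP1 and PI4KAP2 counted among them, 4 rose and 0 fell. The unsplit family, with slightly different members, had 4 higher and 6 lower of 46 (8.7% and 13.0%). Over all genes the shares were 6.5% higher and 7.36% lower. After SBF2, MTMR11 changed by -0.88 ± 0.12, OCRL, mutated in Lowe syndrome, by -0.86 ± 0.13, and INPP5D by -0.79 ± 0.19. Among the kinases PIP5K1C rose by 0.63 and PIP4K2A by 0.57.

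Of 31 syntaxins and related vesicle fusion proteins 3 rose and 3 fell, shares of 9.68% each that lie near the 6.5% and 7.36% of all genes. STX6, of the trans-Golgi network, changed by -1.01 ± 0.15 and the endosomal VAMP3 by -0.73 ± 0.13, whereas STX3, of the apical surface, rose by 0.64 ± 0.14. Of 47 Rab GTPases 3 rose and 6 fell, RAB40B by -0.94 ± 0.13 after RAB26. Among 10 regulators of G protein signalling, which switch G alpha subunits off, RGS4 and RGS16 each rose by 0.97 and RGS20 by 0.68, and RGS10 changed by -0.46. RGS4 had 6.93, 6.70, 7.06 and 7.29 on mimic arrays, against 5.98, 6.24, 5.91 and 5.98 on scramble arrays, with no overlap. When 1 array was left out, INPP5D lost its call in 4 of 8 fits and RGS10 in 5 (limma adjusted p up to 0.0576 and 0.0581, both without scramble 1). Of 6 tested laminins 3 fell, led by LAMB2, and LAMB3 was at least 1.28-fold higher, being detected on 0 of 4 scramble arrays.

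Falls also outnumbered rises in some metabolic and regulatory families that stayed under 3 times the background. The shares over all genes were 7.36% lower and 6.5% higher. Of 36 genes in the family of acyl-CoA synthetases, dehydrogenases and thioesterases, defined by symbol, 7 fell and 0 rose. The median of the family was -0.02. ACSL4 changed by -0.90 ± 0.12 (second probe -0.19), ACAD11 by -0.56 ± 0.12 and CPT1C by -0.55 ± 0.09. Of 35 TRIM proteins (median -0.1), many of them ubiquitin ligases, 6 fell and 0 rose (17.1% lower), with TRIM4 at -1.02 ± 0.14. Of 36 lysosomal genes (median -0.02) 5 fell and 1 rose (13.9% and 2.78%). PSAP had 10.93, 11.47, 11.18 and 10.86 on mimic arrays, against 12.18, 12.33, 12.02 and 11.94 on scramble arrays, the protease gene TPP1 changed by -0.75 ± 0.11, and the protease gene CTSC rose by 0.74 ± 0.11. Of 28 replication-linked histone genes (median -0.05) 6 fell and 0 rose, with the linker histone H1-2 at -0.86 ± 0.17 and H2AC25 at -0.75 ± 0.13. These closely related genes can share probe sequence, so the member is uncertain. The bright replacement histone gene H2AZ1 rose by 0.34 ± 0.09, and its call was lost in 6 of 8 fits that left out 1 array (limma adjusted p up to 0.0726, without mimic 1).

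By type of transcript, long noncoding RNAs were called in 1 direction. Of 218 tested, 24 fell and 0 rose, beside 7.36% and 6.5% of all genes, and their median was -0.07. HDHD5-AS1 changed by -0.95 ± 0.12, although its second probe read 0.06, FAM238B by -0.92 ± 0.13 and LINC01315 by -0.72 ± 0.12. FAM238B had 8.05, 8.46, 7.80 and 8.33 on mimic arrays, against 9.14, 9.05, 9.10 and 9.03 on scramble arrays. The number of falls was 10 without mimic 3 and 28 at most, and up to 2 rises were called when 1 array was left out. Of 112 small nucleolar RNAs, which guide RNA modification, 11 rose and 2 fell, with SNORA63 and SNORA28 (0.88 ± 0.14) the largest. Their median was 0.06, or -0.01 with arrays scaled to a common median, and they had 6 rises and 0 falls without mimic 4, and at most 14 rises and 3 falls when 1 array was left out.

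Among families, 8 had 0 calls in either direction, beside 13.9% called over all genes, and in sets this small few calls would be awaited at that share. Over all genes, 31.5% had an unadjusted p under 0.05, against which the counts at that level are to be read. The largest of these families were the 29 small subunit ribosomal proteins and the 24 tubulins (median 0.01, or -0.02 with arrays scaled to a common median, and 7 with an unadjusted p under 0.05). The others were the 23 caspases and BCL2 proteins, the 23 MAGE and GAGE antigens, the 20 adaptor protein complex subunits, the 19 ATP synthase genes, the 18 cohesin, condensin and SMC proteins, and the 14 histone deacetylases and sirtuins. The deacetylases had a median of -0.15 with 4 at an unadjusted p under 0.05. When probes of a gene were averaged, 1 tubulin rose and 1 fell, 2 genes of the caspase and BCL2 set rose, and 1 small subunit protein and 1 deacetylase fell. With arrays scaled to a common median 1 MAGE or GAGE gene fell.

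Promoters were searched for short motifs because several of the sets described are known targets of stress-activated or cell cycle factors. RefSeq promoters (GRCh38.p14, 250 bases before to 50 after the start) matched 9144 of the 11382 genes, 598 of them higher and 697 lower. Both strands were searched. The AP-1 motif TGANTCA was found in 4.35% of promoters of genes that rose, 4.30% of genes that fell and 4.28% of all. The antioxidant element TGACNNNGC, which can overlap AP-1, was in 15.9%, 12.2% and 15.4%, and the E2F motif TTTCCCGC in 4.01%, 2.01% and 2.69%, in the same order. The cyclic AMP element TGACGTCA was in 3.68%, 2.87% and 3.48%. The endoplasmic reticulum stress element, CCAAT and CCACG 9 bases apart, was in 2 of 598, 0 of 697 and 15 of 9144. The CCAAT box alone was in 38.8%, 37.2% and 37.4%, the forkhead motif GTAAACA in 1.34%, 2.58% and 2.21%, and the interferon element, GAAA and GAAA 2 bases apart, in 2.34%, 2.73% and 2.70%. Median promoter GC content was 66.8% for genes that rose, 64.0% for genes that fell and 65.3% for all.

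The promoters of 3 of the genes with large changes are printed because each holds the motif named for its pathway, in capitals. HSPA5 (chr9:125241294-125241593, minus strand) has 1 stress element, beginning 66 bases before the start. CXCL8 (chr4:73740319-73740618, plus strand) has 1 AP-1 motif, 137 bases before the start. BST2 (chr19:17405581-17405880, minus strand) has 2 interferon elements that overlap in 1 run, the first 130 bases before the start. A match describes the letters and is no evidence of binding.
HSPA5: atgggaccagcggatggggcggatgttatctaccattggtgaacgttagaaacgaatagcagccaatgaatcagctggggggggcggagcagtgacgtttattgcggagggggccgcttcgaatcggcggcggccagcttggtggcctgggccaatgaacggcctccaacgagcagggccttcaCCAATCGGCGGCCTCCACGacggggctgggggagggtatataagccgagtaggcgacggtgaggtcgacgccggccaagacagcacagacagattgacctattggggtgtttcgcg
CXCL8: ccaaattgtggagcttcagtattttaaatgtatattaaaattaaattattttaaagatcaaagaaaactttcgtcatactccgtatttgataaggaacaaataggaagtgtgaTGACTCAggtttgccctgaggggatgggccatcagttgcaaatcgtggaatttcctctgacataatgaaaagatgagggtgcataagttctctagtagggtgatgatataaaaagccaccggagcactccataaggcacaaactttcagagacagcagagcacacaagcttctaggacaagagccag
BST2: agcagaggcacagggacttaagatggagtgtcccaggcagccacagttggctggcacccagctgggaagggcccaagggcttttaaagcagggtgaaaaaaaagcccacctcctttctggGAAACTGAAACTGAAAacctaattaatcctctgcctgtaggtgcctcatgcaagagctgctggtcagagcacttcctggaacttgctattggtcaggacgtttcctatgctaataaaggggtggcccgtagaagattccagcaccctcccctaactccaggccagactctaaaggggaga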

How the data were processed

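Total RNA of TC71 cells was hybridised to Illumina arrays. The deposited intensity values of the raw table are, per the file headers, 1 average signal per probe and array with no normalization, and each detection p-value was deposited beside its intensity. The scanner software is not given in the sources used here. A second deposited table holds the authors' normalized intensity values, used as an alternative. Background was corrected from the detection p-values with limma 3.58.1 in R 4.3.3 (nec, offset 16), arrays were quantile-normalized and log2 was taken. Probes with a detection p under 0.05 on at least 4 of the 8 arrays were kept, and all kept probes were fitted together (lmFit, eBayes) with Benjamini-Hochberg adjustment over all of them. A call is an adjusted p under 0.05. A gene was read from its brightest kept probe. Of the probes, 30113 name 1 gene, 8 several and 17201 none in the platform annotation. Of those naming 1 gene, 30074 were updated through their Entrez identifier.

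The fit was tested on simulated data with known changes. With 4 arrays per group, that number limits the precision. The alternatives were 12 settings and 8 fits that left out 1 array. Same-numbered mimic and scramble arrays did not deviate together (correlations -0.142 to 0.076), so numbers were not taken as pairs.

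Genes, families and lists were chosen with earlier results of these data known, and family patterns were narrowed after values were seen. The rule for named genes took ARHGAP1, CDC42, JUN and miR-130 family genes, the 12 largest rises and falls, up to 3 called genes per family or list, genes with concordant or opposite probes, genes detected in 1 group, and the brightest, most variable and nearly called genes. Named outside it, after their values were seen, were ABI1, ARPC5L, DNAJC4, DNAJC18, E2F7, FAM238B, INPP5D, LIN28B, MED12, MED13L, PIP4K2A, PIP5K1C, PSMC4, RGS10, RGS20, TFDP1, TFDP2 and UFD1. Classes of genes by seed match in their messengers were planned but not analysed here, since no transcript sequences were used. The array files name no genome build, so the positions printed are those of the RefSeq tables (GRCh38.p14), for microRNAs and for the promoters shown.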

Additional observations from a re-analysis of the deposited data

Results flagged for a closer look

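Among the genes named in the text, 268 groups of 4 arrays were checked for 1 array far from the other 3, by the gap to the nearest array as a share of the group's range. The gap passed Dixon's critical value in 14 groups, and chance flags about 1 in 20 groups. On scramble array 1 the gap was 0.846 for CDK19 (9.58 against 9.02 to 9.11 on the other scramble arrays), 0.846 for JUN (8.89 against 8.25 to 8.35), 0.884 for RPL28 (8.99 against 8.78 to 8.80), 0.837 for MYCN (6.15 against 5.75 to 5.82) and 0.833 for SLC38A12 (5.07 against 5.46 to 5.54). On scramble array 4 it was 0.914 for SBF2 (7.20 against 7.57 to 7.60), 0.866 for COL1A1 (7.25 against 7.52 to 7.56), 0.924 for MYBL2 (4.51 against 4.97 to 5.0) and 0.846 for NPLOC4 (8.71 against 8.45 to 8.49). On scramble array 2 it was 0.843 for MIR130A (6.29 against 6.71 to 6.79). On mimic array 3 it was 0.848 for CYFIP2 (8.16 against 8.58 to 8.65), 0.89 for H1-2 (9.01 against 9.53 to 9.59) and 0.897 for HNRNPM (13.38 against 13.14 to 13.16). On mimic array 2 it was 0.849 for MYL10 (5.64 against 6.05 to 6.12).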

How the results depend on the processing

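Leaving out 1 array at a time gave 765 to 1594 changed genes, 345 to 743 higher and 420 to 873 lower, with rises making up 44.2% to 50.4% of calls. ARHGAP1 ranged from -0.69 to -0.42, and its limma adjusted p was above 0.05 in 6 of these 8 fits. With arrays scaled to a common median 402 genes were higher and rises were 36.3% of calls, and with probes of a gene averaged they were 49.6%. Without a filter on dim probes ARHGAP1 kept its change of -0.58 with an adjusted p of 0.0817. The fit with the replicate block called 1122 genes, 502 higher and 620 lower, and ARHGAP1 had an adjusted p of 0.0398. It ended the calls of ARPC5L, CCND1, E2F2, E2F7, H2AZ1 and TFDP2. The cause of these differences was not tested. Averaging probes turned 2 named genes, CDC42 to 0.04 and PPM1A to 0.07, because their probes differ in sign. Over 134 named genes and 20 alternatives, 2508 of 2671 values kept their direction and side of the threshold, 153 were no longer called and 8 became called. The total over the 12 other settings ran from 1073 without a filter to 2222 with a trended, robust prior. The number of arrays limits what could be called, and probes not above background were not tested.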
